A study of Mus musculus with 2 samples.

Results

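Bone morphogenetic protein (BMP) loci were compared between H3K27ac peak lists of the atrioventricular canal (AVC) and the chambers of the mouse heart at stage E10.5. H3K27ac, acetyl-lysine on a histone tail, marks promoters and enhancers that are in use. The loci were 6 windows of the mm9 genome drawn around the ligand genes Bmp2 and Bmp4, the response genes Msx1 and Msx2, and the inhibitory SMAD genes Smad6 and Smad7, and a peak belonged to a window when its midpoint lay inside. They held 197 of the 154664 peaks of both lists, 117 of 87572 in the AVC and 80 of 67092 in the chambers. The AVC library came from EGFP-positive cells and the chamber library from Katushka-positive cells, both purified by flow sorting from hearts on an FVB/N background. Both were labelled with the same genotype, Katushka+ EGFP+, and there was 1 library per tissue. The promoters that drive the fluorescent reporters, and how many embryos were pooled, are not given in the sources used here. The tissue labels were not checked against marker genes, because the lists carry positions and no gene names.

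BMP ligands are secreted proteins of the TGF-beta family. They bind pairs of membrane receptors, which phosphorylate receptor-regulated SMAD proteins that enter the nucleus and switch target genes on or off. In the embryonic heart, Bmp2 from the myocardium of the canal is known for its part in setting the identity of the canal and in forming the valve cushions, and Bmp4 for its part in the outflow tract. Msx1 and Msx2 encode homeobox transcription factors whose expression BMP signalling raises, and Smad6 and Smad7 encode inhibitory SMADs that dampen the pathway which induces them.

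The promoter letters of 4 of the 6 genes (Bmp4, Msx1, Msx2 and Smad6) were found in the RefSeq table of GRCm38.p6, and a pair is shown to set an inhibitory SMAD beside a homeobox target. Each run covers 250 bases before the gene's start and 20 after it, 5′ to 3′ on the minus strand of GRCm38.p6, chr9:64022040-64022309 for Smad6 and chr13:53472761-53473030 for Msx2. These positions are of another build than the peaks, so no peak was placed on them. Capitals mark the palindromic SMAD-binding motif GTCTAGAC.
Smad6 promoter: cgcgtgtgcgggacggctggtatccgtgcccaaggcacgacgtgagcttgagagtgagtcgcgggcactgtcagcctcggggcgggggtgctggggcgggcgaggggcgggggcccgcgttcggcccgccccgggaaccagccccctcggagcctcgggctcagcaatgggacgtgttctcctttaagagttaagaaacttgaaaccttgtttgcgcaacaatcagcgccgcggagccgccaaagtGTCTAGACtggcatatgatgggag
Msx2 promoter: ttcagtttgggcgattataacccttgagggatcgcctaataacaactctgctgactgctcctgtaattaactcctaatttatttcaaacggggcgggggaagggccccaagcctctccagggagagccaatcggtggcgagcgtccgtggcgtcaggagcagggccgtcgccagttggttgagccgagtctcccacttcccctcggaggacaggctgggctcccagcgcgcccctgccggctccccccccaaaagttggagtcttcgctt
The palindrome reached from base -4 to base 4 around the Smad6 start, counting the start as 1 with no base 0, and was in 0.183% of 32851 promoters of this length. The search, on both strands, also covered the GC-rich SMAD element GGCGCC, which 10.4% of promoters hold. The shorter SMAD-binding element GTCTG was in 45.4% of them. The T-box motif TCACACCT was in 1.2%, the motif of GATA factors, searched for as AGATAA, in 10.53%, and the Nkx2-5 motif, TNAAGTG, in 10.6%. None of these 5 was found in the 4 promoters, and the palindrome was found in that of Smad6 alone.

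The windows of the inhibitory SMAD genes were dense in peaks of both tissues and held most of the overlapping ones. The windows of the ligands and of the Msx genes held fewer peaks, 40 of the AVC and 12 of the chambers in all. Smad6 held 42 AVC and 44 chamber peaks, and Smad7 35 and 24. Bmp2 held 13 AVC and 3 chamber peaks, Bmp4 5 and 2, Msx1 9 and 4, and Msx2 13 and 3. Each tissue had 1 library, so there is no replicate check and no test between tissues; the 95% intervals below are exact binomial ones (Clopper-Pearson), which allow for counting error alone and treat neighbouring peaks as independent. In bulk chromatin, more cells that carry the mark and more of the mark per cell cannot be told apart.

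**Figure D1:**
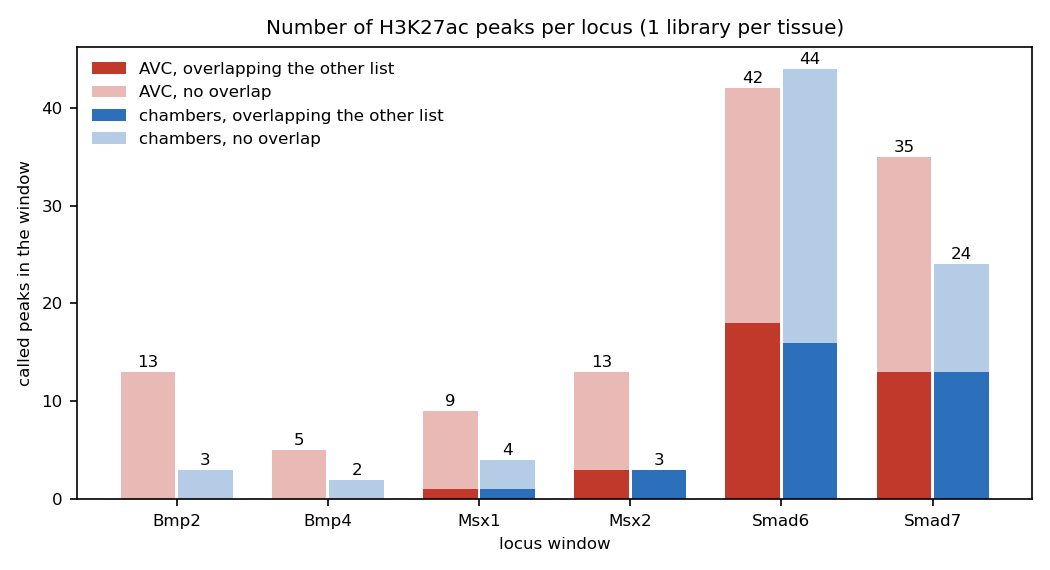
Called peaks (vertical axis) in the window of each gene (horizontal axis), AVC bars left and chamber bars right, with the dark part overlapping a peak of the other list by at least 1 bp and the pale part not. The Smad6 and Smad7 bars run from 24 to 44 peaks, and no bar of the other 4 loci exceeds 13.

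Over the 6 windows 35 of 117 AVC peaks (29.9%, interval 21.8 to 39.1) were in overlaps with the chamber list, beside 23.2% of all AVC peaks. Of the chamber peaks, 33 of 80 overlapped an AVC peak (41.2%, 30.4 to 52.8), beside 31.6% of all chamber peaks. With neighbours within 1 kb counted too, it was 59 of 117 AVC peaks (50.4%, beside 32.9% of the list) and 52 of 80 chamber peaks (65%, beside 47.5%). The dense Smad6 and Smad7 windows held 50 of these 59 AVC peaks and 45 of these 52 chamber peaks. The whole-list shares do not allow for peak density, and its bearing on overlap was not tested. Smad6 and Smad7 together had 31 of 77 AVC peaks in overlaps (40.3%, 29.2 to 52.1), and Bmp2, Bmp4, Msx1 and Msx2 together 4 of 40 (10%, 2.79 to 23.7, which takes in the 23.2% of the whole list). Of the chamber peaks, 29 of 68 at Smad6 and Smad7 were in overlaps (42.6%, 30.7 to 55.2), and 4 of 12 at the other loci (33.3%, 9.92 to 65.1), so no difference could be seen at these numbers. Scores under 3 were as common in the chamber peaks of both groups of loci, 39 of 68 at Smad6 and Smad7 and 7 of 12 at the others, and in the AVC made up 42 of 77 and 29 of 40. Such scores were ordinary: the median over the whole list was 2.62 in the AVC and 2.81 in the chambers.

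The caller's score, Log(ER), is the authors' value, with a log base that the header does not give, and was set within each chromosome of a list. A strong peak is here one with a score of at least 5. Strong peaks made up 24 of the 117 AVC peaks (20.5%, 13.6 to 29.0), beside 9.95% of all AVC peaks, and 10 of the 80 chamber peaks (12.5%, 6.16 to 21.8), beside 18.1% of all chamber peaks. Of these, 18 AVC and 9 chamber peaks overlapped the other list, beside 75.4% of all strong AVC peaks and 70.8% of all strong chamber peaks. Smad6 and Smad7 held 21 of the 24 and 9 of the 10.

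**Figure D2:**
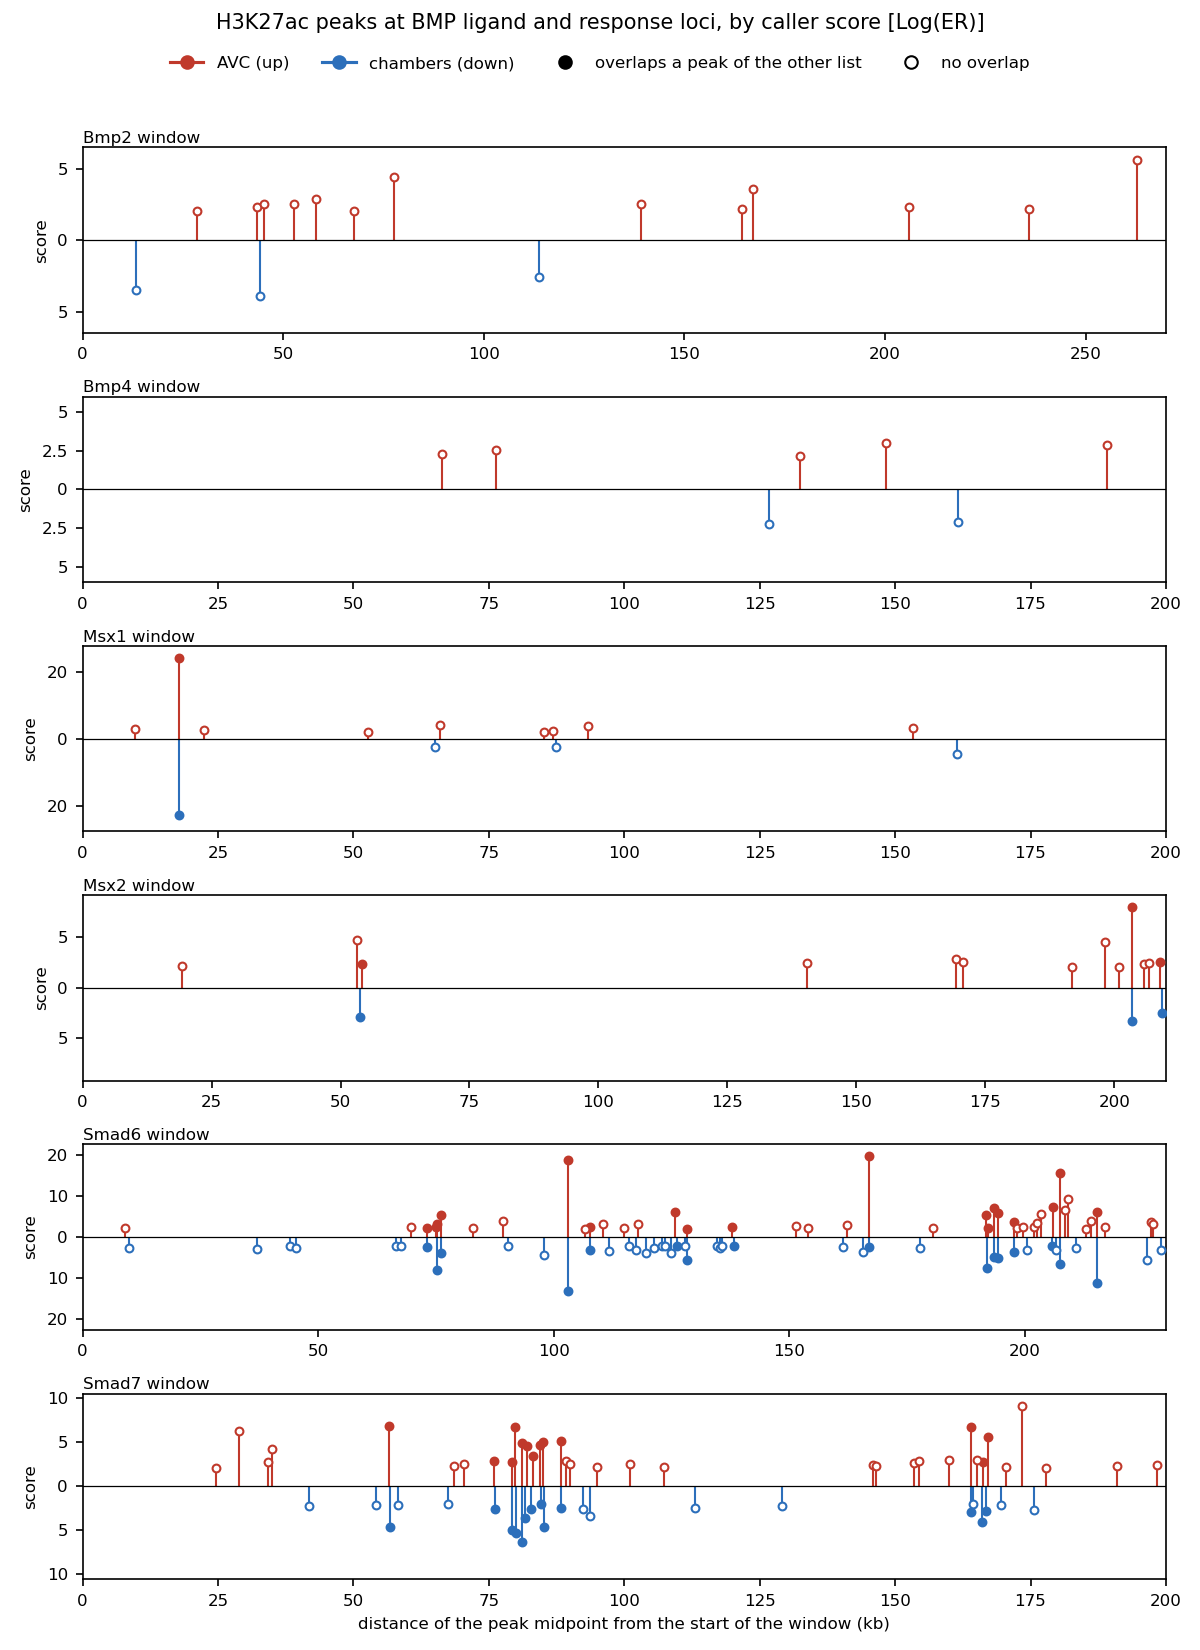
Peaks at each locus by distance of the midpoint from the window start (horizontal axis, kb) and by score (vertical axis, Log(ER), with a scale of its own in each panel), AVC upwards and chambers downwards; filled points overlap a peak of the other list. Smad6 and Smad7 show clusters of overlapping peaks, and no point at Bmp2 or Bmp4 is filled.

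Bmp2, the ligand of the canal myocardium, had 13 AVC peaks and 3 chamber peaks in 270 kb, and none of either list overlapped the other (0 of 13 AVC peaks, an interval of 0 to 24.7%, and 0 of 3 chamber peaks, 0 to 70.8%). Overlap was the exception elsewhere too, at 25.1% of AVC and 29.7% of chamber peaks on the rest of chromosome 2. The chamber interval takes in its 29.7%. The AVC interval ends just below the 25.1% of its own chromosome, and takes in the 23.2% of the whole AVC list. The AVC scores ran from 2.07 over a median of 2.51 to 5.65, beside a median of 2.62 over the whole AVC list, and 10 of the 13 were under 3. The chamber scores were 3.49, 3.94 and 2.61. The AVC peak of highest score was also its widest, at 133542401 to 133543121 on chromosome 2, with 721 bp, a score of 5.65 and rank 454 of the 5929 AVC peaks of the chromosome. It lay 262.76 kb into the 270 kb window, near its end, and its relation to Bmp2 was not tested. The nearest chamber peak lay 51105 bp away. The chamber peak of highest score, at 133323989 to 133324538, ranked 1337 of 5268 and stood between AVC peaks at 133323336 to 133323741 and 133324864 to 133325448, the nearer 247 bp away. In this small cluster the lists therefore marked adjoining rather than identical bases. From 133418912 to 133543121, over 124 kb, the window held 6 AVC peaks in a row and no chamber peak.

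AVC peaks were 81.2% of the peaks at Bmp2 (54.4 to 96.0), beside 52.9% on the rest of chromosome 2 and 56.6% over the genome. Such a share was not rare: among all windows of this length with at least 5 peaks, tiled over the genome, 9.70% had a share at least as high. By number, 71.5% of the windows of this length with any peak had fewer AVC peaks than Bmp2, and 33.4% had fewer chamber peaks. With peaks of score 3 or more alone, Bmp2 kept 3 AVC and 2 chamber peaks. The window extended by 50 kb at each end held 16 AVC and 6 chamber peaks, a share of 72.7%. Shortened by 50 kb at each end, it held 8 and 1, a share of 88.9%.

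Bmp4 had the fewest peaks of the 6 loci, 5 in the AVC and 2 in the chambers within 200 kb, and no overlap (0 of 5, an interval of 0 to 52.2%, and 0 of 2, 0 to 84.2%). On the rest of chromosome 14, 19.8% of AVC and 33.5% of chamber peaks overlapped, inside these intervals. The AVC scores were 2.29, 2.53, 2.18, 3.02 and 2.89. The chamber scores were 2.24 and 2.11. Both chamber scores, and the AVC scores of 2.18 and 2.29, were close to the caller's threshold of 2. The chamber scores lay under the median of the whole chamber list, 2.81, and the AVC scores on both sides of that of the AVC list, 2.62. The AVC peak of highest score lay at 47048072 to 47048662 on chromosome 14, rank 1416 of 4573, and the chamber peak of highest score at 47026612 to 47026825, rank 2120 of 2778. The gap between an AVC peak and the nearest chamber peak was at least 5392 bp. Of all windows of 200 kb with any peak, 41.6% had fewer AVC peaks and 28.6% fewer chamber peaks than Bmp4. The AVC share, 71.4% (29.0 to 96.3), had the rest of chromosome 14, at 62.2%, well inside its interval. Over the ligand windows together, 1 of 18 AVC peaks and 0 of 5 chamber peaks reached a score of 5.

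Msx1, a homeobox gene expressed in cushion and canal cells, had 9 AVC and 4 chamber peaks in 200 kb. The highest scores of all 6 loci were here, 24.11 in the AVC and 22.82 in the chambers, at a single site on chromosome 5, 38127695 to 38127908 in the AVC and 38127686 to 38127811 in the chambers. Both peaks were narrow, 214 and 126 bp wide, with unscaled signal values of 315 and 165. Narrow peaks were common in this range: 64.5% of all AVC peaks and 42% of all chamber peaks with a score of at least 10 were under 300 bp. The site lay 17.8 kb from the window's edge, and its relation to Msx1 was not tested. Apart from it, the AVC scores ran up to 4.20, at 38175728 to 38176381 (654 bp), and the chamber scores were 2.37, 2.37 and 4.68. The 4.20 peak had a chamber peak of score 2.37 at 411 bp. The chamber peak of 4.68, at 38271290 to 38271649, had no AVC peak within 7724 bp. The AVC share was 69.2% (38.6 to 90.9), beside 54.4% on the rest of chromosome 5.

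Msx2, the paralogue of Msx1, had 13 AVC and 3 chamber peaks in 210 kb, of which 3 of each list were in overlaps. This was 23.1% of the AVC peaks (5.04 to 53.8), beside 19.5% on the rest of chromosome 13, and 3 of 3 chamber peaks (29.2 to 100%), beside 29.6%, inside both intervals. The overlapping pairs had scores of 2.36, 7.98 and 2.58 in the AVC and of 2.87, 3.31 and 2.45 in the chambers. The strongest pair was again narrow, at 53653332 to 53653512 on chromosome 13 in the AVC (181 bp) and 53653391 to 53653492 in the chambers (102 bp). The AVC peak of highest score without overlap, at 53502937 to 53503473 with a score of 4.72, lay 269 bp from the first chamber peak. Most AVC peaks gathered at the far end of the window. In the last 20 kb, 53640001 to 53660000, there were 7 AVC and 2 chamber peaks, and 8 AVC peaks followed each other from 53503818 to 53653512 with no chamber midpoint between them.

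AVC peaks made up 81.2% of the peaks at Msx2 (54.4 to 96.0), beside 59.1% on the rest of chromosome 13, which lay inside the interval. A share at least as high was found in 10.4% of tiled windows of this length with at least 5 peaks. With 50 kb taken off each end, the Msx2 window kept 3 AVC and 1 chamber peaks (75%). With 50 kb added at each end it held 15 and 4 (78.9%). Most of its AVC peaks thus lay towards the window ends, and their relation to Msx2 was not tested. By AVC number, 81.4% of the windows of this length with any peak had fewer peaks than Msx2, and by chamber number 40.3%. Of the 22 AVC peaks at the Msx loci, 15 (68.2%) were at least 500 bp wide, beside 41.8% of all AVC peaks; none of the 7 chamber peaks was, beside 13.3%.

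**Figure D3:**
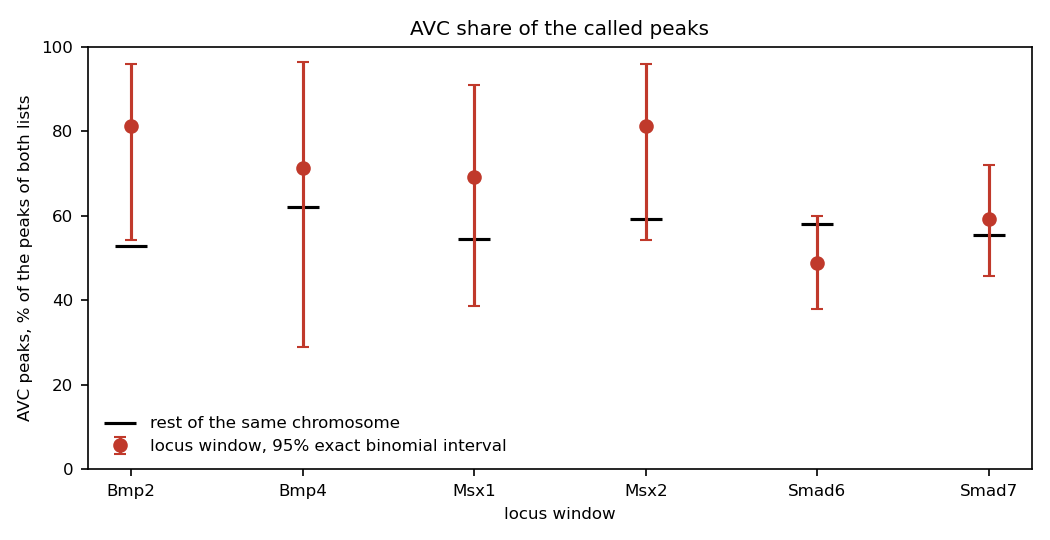
AVC peaks as a percentage of the peaks of both lists (vertical axis) in each window (horizontal axis), with exact 95% intervals, and the same percentage on the rest of each chromosome (black bars). Only the Bmp2 interval, from 54.4 to 96.0%, leaves out the value of its own chromosome, 52.9%.

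Smad6, whose protein blocks BMP signalling at the receptor and SMAD level, was the densest locus. Its 42 AVC and 44 chamber peaks in 230 kb came to 18.3 and 19.1 per 100 kb, beside 3.41 and 2.47 over chromosome 9. Of the tiled windows of this length with any peak, 99.4% had fewer AVC peaks and 99.5% fewer chamber peaks. Peaks covered 22417 bp in the AVC, 16442 bp in the chambers and 5808 bp in both. In the reference gene order its neighbours were Smad3, which encodes a SMAD of TGF-beta signalling, and Lctl, and how the peaks divide among these genes was not tested. The AVC share was 48.8% (37.9 to 59.9), beside 58.1% on the rest of the chromosome, inside the interval. In overlaps were 18 of 42 AVC peaks (42.9%, 27.7 to 59.0) and 16 of 44 chamber peaks (36.4%, 22.4 to 52.2). On the rest of chromosome 9, where peaks were sparser, it was 24.0% and 34.4%. Only the chamber value lay inside its interval.

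Strong peaks at Smad6 numbered 13 in the AVC (31.0%, 17.6 to 47.1) and 7 in the chambers (15.9%, 6.64 to 30.1), beside 12.3% and 20.9% on the rest of chromosome 9. The highest and widest AVC peak lay at 63866103 to 63868016, with 1914 bp, a score of 19.59 and rank 144 of 4229. The single chamber peak inside it, at 63866784 to 63867100, was 317 bp wide with a score of 2.39, near the threshold. The signal values there were 188 in the AVC and 27 in the chambers. This was the widest difference in score among the 35 overlapping pairs. The next AVC peaks, scoring 18.62 and 15.56, each overlapped a chamber peak that scored above that 2.39. At 63802888 to 63803117 the AVC peak of 18.62 met the highest chamber peak of the locus (63802888 to 63803072, score 13.20); both were narrow, 230 and 185 bp. At 63906933 to 63908141 the AVC peak of 15.56 met the widest chamber peak (63907114 to 63908091, 978 bp, score 6.51).

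Other Smad6 sites scored higher in the chambers. The chamber peak at 63915071 to 63915707 had a score of 11.24, and the AVC peak on it 6.15. The chamber peak at 63775009 to 63775459 had a score of 8.05 over AVC peaks of 2.49 and 3.08, and the one at 63828093 to 63828523 had 5.49 over an AVC peak of 2.05. In all, the AVC had the higher score in 10 of the 18 overlapping pairs at Smad6, beside 49.5% of the 1110 pairs of chromosome 9 and 46.6% of all 22319 pairs. Equal scores in the 2 lists need not mark equal enrichment. Peaks of highest score without overlap were 63908881 to 63909617 in the AVC (9.27, with the nearest chamber peak at 789 bp) and 63925672 to 63926237 in the chambers (5.65, with the nearest AVC peak at 426 bp).

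The Smad6 window also held stretches of opposite balance, picked out after the values were seen as adjoining 10 kb bins that differed the same way by at least 2 peaks. From 63820001 to 63840000 there were 3 AVC and 11 chamber peaks, 1 strong peak in each list, and 3 of each list in overlaps. From 63890001 to 63920000 there were 18 AVC and 10 chamber peaks, with 9 strong AVC and 3 strong chamber peaks, and 8 AVC and 7 chamber peaks in overlaps. At the start of the window, from 63709687 to 63767833, 6 chamber peaks in a row scored at most 2.81.

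Smad7, the other inhibitory SMAD, which acts on both BMP and TGF-beta receptors, had 35 AVC and 24 chamber peaks in 200 kb, or 17.5 and 12 per 100 kb, beside 3.71 and 2.97 over chromosome 18. Of the tiled windows of this length with any peak, 99.2% had fewer AVC peaks and 97.3% fewer chamber peaks. In the reference gene order it stands between Dym and Ctif. Peaks covered 18559 bp in the AVC, 7929 bp in the chambers and 3755 bp in both. The AVC share was 59.3% (45.7 to 71.9), beside 55.5% on the rest of the chromosome.

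At Smad7, 13 of 35 AVC peaks (37.1%, 21.5 to 55.1) and 13 of 24 chamber peaks (54.2%, 32.8 to 74.4) were in overlaps. On the rest of the chromosome, where peaks were sparser, it was 24.3% and 31.4%. Many of the overlaps at Smad7 stood in the 20 kb with most peaks, 75520001 to 75540000. There 9 of 12 AVC peaks and 9 of 9 chamber peaks were in overlaps. These 20 kb were chosen for their number of peaks, and the overlap in equally dense stretches elsewhere was not computed. The highest AVC score of these 20 kb was 6.71, at 75529392 to 75530261 (870 bp), on a chamber peak of 5.28 at 75529743 to 75530245. Its highest chamber score, also the highest of the locus, was 6.28, at 75530828 to 75531244, on an AVC peak of 4.88. A second group of pairs stood between 75613982 and 75617601, with AVC scores of 6.71, 2.73 and 5.57 on chamber scores of 2.96, 4 and 2.82; the first of these pairs was narrow, 216 and 194 bp.

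The strongest Smad7 peak belonged to the AVC alone. It lay at 75622732 to 75623945, with 1214 bp, a score of 9.16 and rank 114 of 3367, and the nearest chamber peak was 1520 bp away. A further AVC peak without overlap, at 75478585 to 75479320, had a score of 6.28 in a 20 kb stretch with 4 AVC peaks and no chamber peak. No strong chamber peak stood alone: both overlapped AVC peaks, and the highest chamber score without overlap was 3.39, at 75543510 to 75543810. Strong peaks numbered 8 in the AVC (22.9%, 10.4 to 40.1) and 2 in the chambers (8.33%, 1.03 to 26.997), beside 9.87% and 16.9% on the rest of chromosome 18. The AVC had the higher score in 10 of 13 overlapping pairs, beside 43.2% of the 908 pairs of the chromosome.

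**Figure D4:**
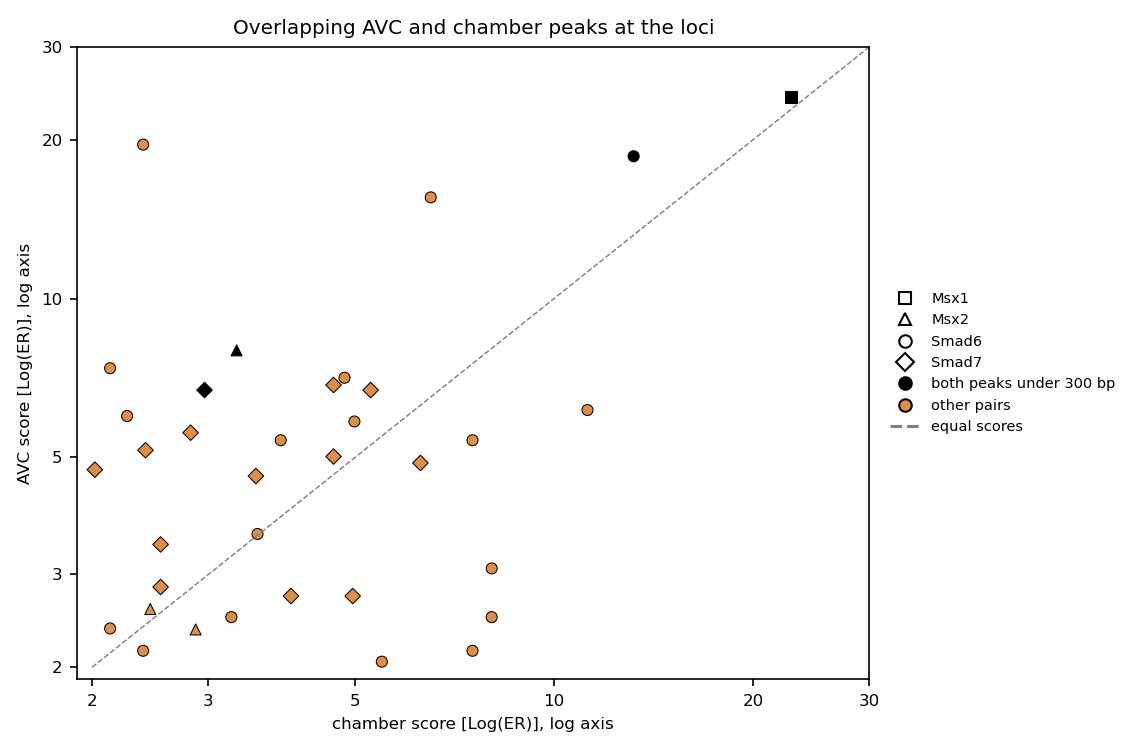
Scores of the 35 pairs of overlapping peaks, AVC on the vertical and chambers on the horizontal axis (both log axes, Log(ER)), by locus; black points are pairs in which both peaks are under 300 bp wide. Points above the dashed line score higher in the AVC, 10 of 18 at Smad6 and 10 of 13 at Smad7; the Msx1 point, at 24.11 and 22.82, lies beside the line.

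Narrow pairs, with both peaks under 300 bp, occurred once at each of Msx1, Msx2, Smad6 and Smad7. At these 4 sites the AVC had the higher score, though at Msx1 by little (24.11 and 22.82). Of all pairs of any width, 46.6% scored higher in the AVC, and the share among all narrow pairs was not computed. Without these 4 pairs, Msx1 had no overlapping pair, and Msx2 had its weak pairs of 2.36 and 2.58 in the AVC on 2.87 and 2.45 in the chambers. The overlap at the Smad loci rested on narrow pairs less. At least 1 peak reached 300 bp in 17 of the 18 pairs at Smad6 and 12 of the 13 at Smad7. In some of these the other peak was under 300 bp. What the narrow sites are was not tested. AVC peaks were also wider in general, with a median over the 6 loci of 497 bp, against 332 bp in the chambers, beside 472 and 325 bp over the whole lists, which bears on covered lengths and on the chance of an overlap.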

How the data were processed

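H3K27ac ChIP-seq peak lists were analysed for 1 AVC and 1 chamber library. Per the file headers, the authors called peaks per library with OccuPeak 1.3, using chromosomes as windows, 2 as the Log(ER) cut-off, reads of 50 bases and modelled fragments of 60.5 (AVC) or 68 (chambers). Bowtie, SAMtools and mm9 appear in the submitters' processing notes, their roles unstated. The deposited score is this Log(ER). The deposited signal is an unnamed whole number per peak, unscaled between lists, and sequencing depth is unknown. No source used here says whether a control library was sequenced.

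Starts were converted from 0-based to 1-based. Peaks were assigned to windows by midpoint, and an overlap needed at least 1 bp. Overlap counting was tested on overlaps and misses of 1 bp planted beside real chamber peaks. It was also compared with a direct count on the real lists of chromosome 18. The peaks planned for naming were, in each list and locus, those of highest score, of highest score without overlap and of greatest width. The longest run of 1 list was planned too. Not all of these are named at each locus. Strong overlapping pairs and 10 kb stretches were added after the values were seen. The 20 kb with most peaks was not in the plan either. Members and lists were chosen with earlier results of these data known. The planned count of further pathway genes was not run, since it needs an mm9 annotation. Gene neighbours came from the RefSeq table of GRCm38.p6, by order only. The tools were Python 3.11.15 with pandas 2.3.3, numpy 2.4.6, matplotlib 3.10.9 and scipy 1.17.1.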

Additional observations from a re-analysis of the deposited data

How the results depend on the processing

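Of 64 recomputed values, 58 stayed inside the 95% interval of the reported share or named the same peak, and 6 moved. Requiring at least 50% of both peaks to overlap gave 17.9% of AVC and 26.25% of chamber peaks in overlaps over the 6 loci, and counting neighbours within 1 kb gave 50.4% and 65%; both follow from the stricter and looser definition. With peaks of at least 300 bp the AVC share over the 6 loci was 69.4%, with 109 AVC and 48 chamber peaks; chamber peaks are narrower, so this limit removes more of them. With scores of at least 3 the share at Bmp4 was 100%, from 1 AVC peak and no chamber peak. Extending the windows by 50 kb at each end gave 69 AVC and 42 chamber peaks at Smad7, so peaks also lay outside its window. At Bmp2, Bmp4, Msx1 and Msx2 the AVC share was at least 60% under all 6 alternatives, near the 56.6% of all peaks at its lowest (Bmp2 with scores of at least 3, against 81.25% with all peaks) and on counts as low as 1 peak. The 56.6% covers peaks of any score and width. Shares over the whole lists at the altered settings are not given here. Ranking by signal value named the same strongest peaks at all 6 loci. This had to be so, because the score rose with the signal value within each list and window. These rankings are among the 58 values that stayed and are no check of stability. No paired analysis was possible because there was only 1 library per tissue. At unknown depth, the absence of a called peak does not show absence of acetylation.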
